A study of Mus musculus with 24 samples.

Results

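The 10 genes described here are endothelial and angiogenic genes chosen by symbol: Pecam1, Cdh5, Esam and Emcn (junction and surface proteins), Kdr, Flt1, Tek and Tie1 (receptors), and Vegfa and Angpt2 (secreted ligands). All 10 were among the 16118 genes listed, and all 10 were among the 16005 tested. RNA came from the inguinal white adipose tissue of 24 mice, a fat depot under the skin, with 1 library per animal and 4 animals in each of 6 groups. Males and females were taken at postnatal day 21 (p21). The other groups, again of each sex, are of day 28 (p28). In the SW groups (standard weaning) pups had been parted from their mother at day 21, and in the DW groups (delayed weaning) they had stayed with her. The p21 animals carry the SW label too, but SW is written here only of p28 animals. The series asks how the depot is remodelled in each sex when breastfeeding is prolonged. No transgene, drug or deletion is named for any group, and the strain is not given in the sources used here.

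Endothelial cells line blood vessels and feed fat tissue with oxygen and lipid. They are held together by adherens junctions built on VE-cadherin, the product of Cdh5, and by further adhesion molecules. VEGF-A, which adipocytes secrete, acts on the receptor encoded by Kdr to drive vessel growth, while the product of Flt1 binds the same ligand and limits what reaches Kdr. Angiopoietins act through the receptor encoded by Tek, with Tie1 as its partner, to set vessel stability. Angpt2, stored in endothelial cells, acts on Tek as an antagonist or a weak agonist depending on context.

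Values are whole reads divided by a factor of each library (normalised read number), and a difference is on the log2(value + 1) scale. A gene is called where limma's Benjamini-Hochberg adjusted p over all 16005 genes was under 0.05, and rose or fell is written of called genes. Recovered reads per library were 57600711 to 302145813, and Angpt2, the least abundant of the 10, had 622 to 2735 reads per library. Adipoq, which defines adipocytes, was at 787 to 1530 in all animals. Libraries differed in how their values followed the GC content of transcripts. For each library this was measured as the correlation, across 11601 genes, of its deviation from the gene means with GC content. It was -0.43 in DW female 82, -0.64 in DW female 83 and -0.51 in p21 male 37, and between -0.21 and 0.48 in the other libraries. DW females 82 and 83 were also the lowest of all animals for Cdh5 and Flt1, so differences of the 10 genes that involve DW females are, where named, also given without both if that moves the value or the call. Their mean log2 level of proliferation markers was the highest of all animals, 5.355 and 5.161, with at most 4.727 in the others. That of adipocyte markers was 9.135 and 8.951, beside 9.723 and 9.69 in DW females 76 and 77. In these animals library and tissue differences cannot be told apart. P21 male 53 and SW male 84 had the fewest genes detected, 14054 and 15497 of 16118. Whether the animals of a group share a litter is not given, so p-values measure the spread between these animals.

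To compare different genes, levels were divided by exon length, taken as the bases of all annotated exons of a gene joined. On this scale Cdh5 was the most abundant of the 10 at a mean of 145 normalised reads per kb over the 24 animals. Pecam1 followed at 58.1, Vegfa at 49.8, Kdr at 29.2 and Esam at 23.5. Tie1 was at 17.2, Tek at 16.1, Flt1 at 11.6, Emcn at 10.4 and Angpt2 at 3.21 normalised reads per kb. The order was firm at some steps and not at others. Cdh5 exceeded Pecam1 in 24 of 24 animals, Vegfa exceeded Kdr in 24, Esam exceeded Tie1 in 24 and Emcn exceeded Angpt2 in 24. Pecam1 and Vegfa changed places between animals, with Pecam1 higher in 17 of 24. Tie1 was above Tek in 15 of 24 animals and Flt1 was above Emcn in 16 of 24, so these neighbours did not stand apart. The step from Kdr to Esam held in 22 of 24 animals, as did the step from Tek to Flt1. The order depends on the length used. Flt1 has 13504 bases of exon and Tek 4712, and before division Flt1 had the higher median (156.2 against 74.44 normalised reads).

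**Figure D1:**
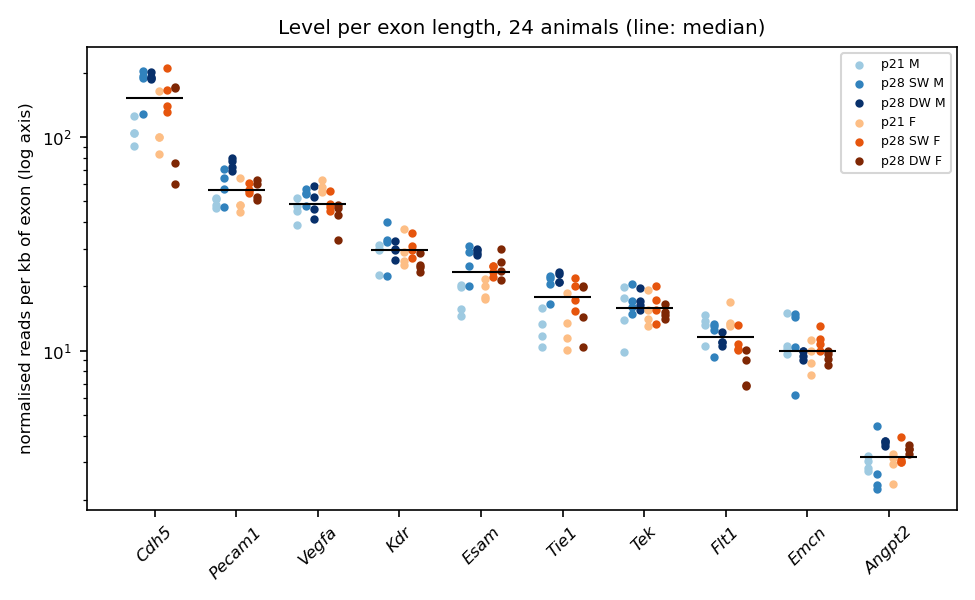
Normalised reads per kb of exon (log axis) of the 10 genes in each of the 24 animals, coloured by group, with a line at the median of the animals. Cdh5 lies highest, at a mean of 145, and Angpt2 lowest, at 3.21, and the points of Pecam1 and Vegfa, and of Tie1 and Tek, overlap.

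Calls among the junction and surface genes were for age. From p21 to p28, Esam rose in males under both weaning schedules, Pecam1 and Cdh5 rose in DW males, and no gene of this group was called in females, though the age changes of the sexes were not shown to differ when tested directly (sex by age interactions, 0 of the 10 called). Of the 10 genes, 2 rose and 0 fell in SW males against p21 males (over all tested genes 6.90% rose and 11.9% were called). In DW males 4 of the 10 rose and 0 fell, against 8.86% of all genes higher and 15.0% called. The median difference over the 10 genes was 0.21 in SW males, where it was 0.01 over all genes, and 0.26 in DW males, where it was 0.02 over all genes. Both comparisons use the same 4 p21 males. Groups free of overlap, with p28 above p21, were found for 2 of the 10 genes in SW males (8.53% of all genes). In DW males they were found for 5 (12.4% of all genes) and in SW females for 1 (11.4%). In DW females 2 of the 10 lay below p21 without overlap (7.61% of all genes). In bulk tissue a change in the number of endothelial cells and a change in RNA per cell cannot be told apart.

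Esam, an adhesion molecule of endothelial tight junctions (chromosome 9), was at 41.79, 56.95, 44.77 and 58.24 in p21 males, at 88.61, 71.36, 82.96 and 57.58 in SW males and at 85.48, 84.69, 82.01 and 80.13 in DW males. All 4 DW males lay above all p21 males, and the lowest SW male, animal 124, lay just under the highest p21 male. The difference from p21 was 0.56 (SE 0.13, adjusted p = 0.0067) in SW males and 0.72 (SE 0.13, adjusted p = 0.0011) in DW males. The SW call was lost with the compared groups alone in the fit (adjusted p = 0.067) and with muscle, mammary and lymph node scores as covariates (adjusted p = 0.053), while the DW call was kept in all 9 other settings and in all 8 fits that left out 1 animal. In females Esam was at 55.1 ± 5.64 (SD, n = 4) at p21, 68.4 ± 3.98 in SW and 72.1 ± 10.4 in DW animals. The 4 SW females lay above all p21 females, but the difference of 0.31 was not called (adjusted p = 0.13). With the compared groups alone in the fit it was called (adjusted p = 0.045), and with tissue scores as covariates it was 0.14 (adjusted p = 0.77). The mammary score, 1 of these covariates, was 2.08 to 3.77 in p21 females and 4.68 to 5.19 in SW females. These ranges do not overlap, so that fit separates age poorly from the score. The DW difference of 0.38 had an adjusted p of 0.057 and crossed the threshold with edgeR (0.41, adjusted p = 0.049) and DESeq2 (0.41, adjusted p = 0.021). It was also called without DW female 76 (0.41, adjusted p = 0.046) and without DW female 83 (0.45, adjusted p = 0.044). Without DW females 82 and 83 together it was 0.36 (adjusted p = 0.13), and over all fits with 1 animal left out the adjusted p ran from 0.044 to 0.19. On values corrected for GC content the DW difference was 0.55 (adjusted p = 0.0069). Over all 9 other settings its adjusted p ran from 0.0069 to 0.15.

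Pecam1, the CD31 adhesion protein of endothelial cells that leukocytes and platelets also carry (chromosome 11), was at 299.1, 290.9, 320.2 and 321.9 in p21 males and at 493.9, 480.5, 432.6 and 452.8 in DW males. No DW male overlapped the p21 males, and the difference was 0.59 (SE 0.12, adjusted p = 0.0026), called in all 9 other settings and all 8 fits with 1 animal left out. SW males were spread between these groups, at 439.1, 356.6, 399.7 and 293.8. Their difference from p21 was 0.26 (adjusted p = 0.16), and 0.37 without SW male 124 (adjusted p = 0.047). In females Pecam1 was at 318.1 ± 54.8 at p21, 355.2 ± 15.9 in SW and 351.4 ± 36.4 in DW animals (SD, n = 4 each), and neither age comparison was called.

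Cdh5, the core of the endothelial adherens junction (chromosome 8), was at 383.0, 437.5, 436.8 and 524.3 in p21 males, at 795.1, 853.7, 808.0 and 535.5 in SW males and at 844.6, 782.0, 798.5 and 789.9 in DW males. Neither p28 group of males overlapped p21. The DW difference was 0.86 (SE 0.27, adjusted p = 0.037) and the SW difference 0.73 (SE 0.27), which was not called (adjusted p = 0.081). The DW call was weak. It was lost in 7 of the 8 fits that left out 1 animal, with adjusted p-values of 0.063 to 0.081 without p21 male 37, 38 or 53 or DW male 79, 80, 86 or 87, and it was kept without p21 male 54. With tissue scores as covariates the difference was 0.89 (adjusted p = 0.11), and without p21 male 53 and SW male 84 it was 0.85 (adjusted p = 0.085). The SW difference was in turn called by DESeq2 (0.75, adjusted p = 0.030) and with the compared groups alone (adjusted p = 0.033). In females the levels were wide: 349.2, 688.0, 421.4 and 418.6 at p21, 549.3, 883.2, 589.2 and 700.6 in SW and 719.2, 715.6, 317.7 and 252.1 in DW animals. The low pair among DW females is animals 82 and 83, and the high p21 female is animal 36, whose library had a GC correlation of 0.38.

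Emcn, a sialomucin of capillary and venous endothelium (chromosome 3), was called in no comparison. Its group means lay between 50.5 and 62.2. SW males ran from 33.73 in animal 124 to 80.71 in animal 78, while DW males lay between 49.16 and 53.77.

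**Figure D2:**
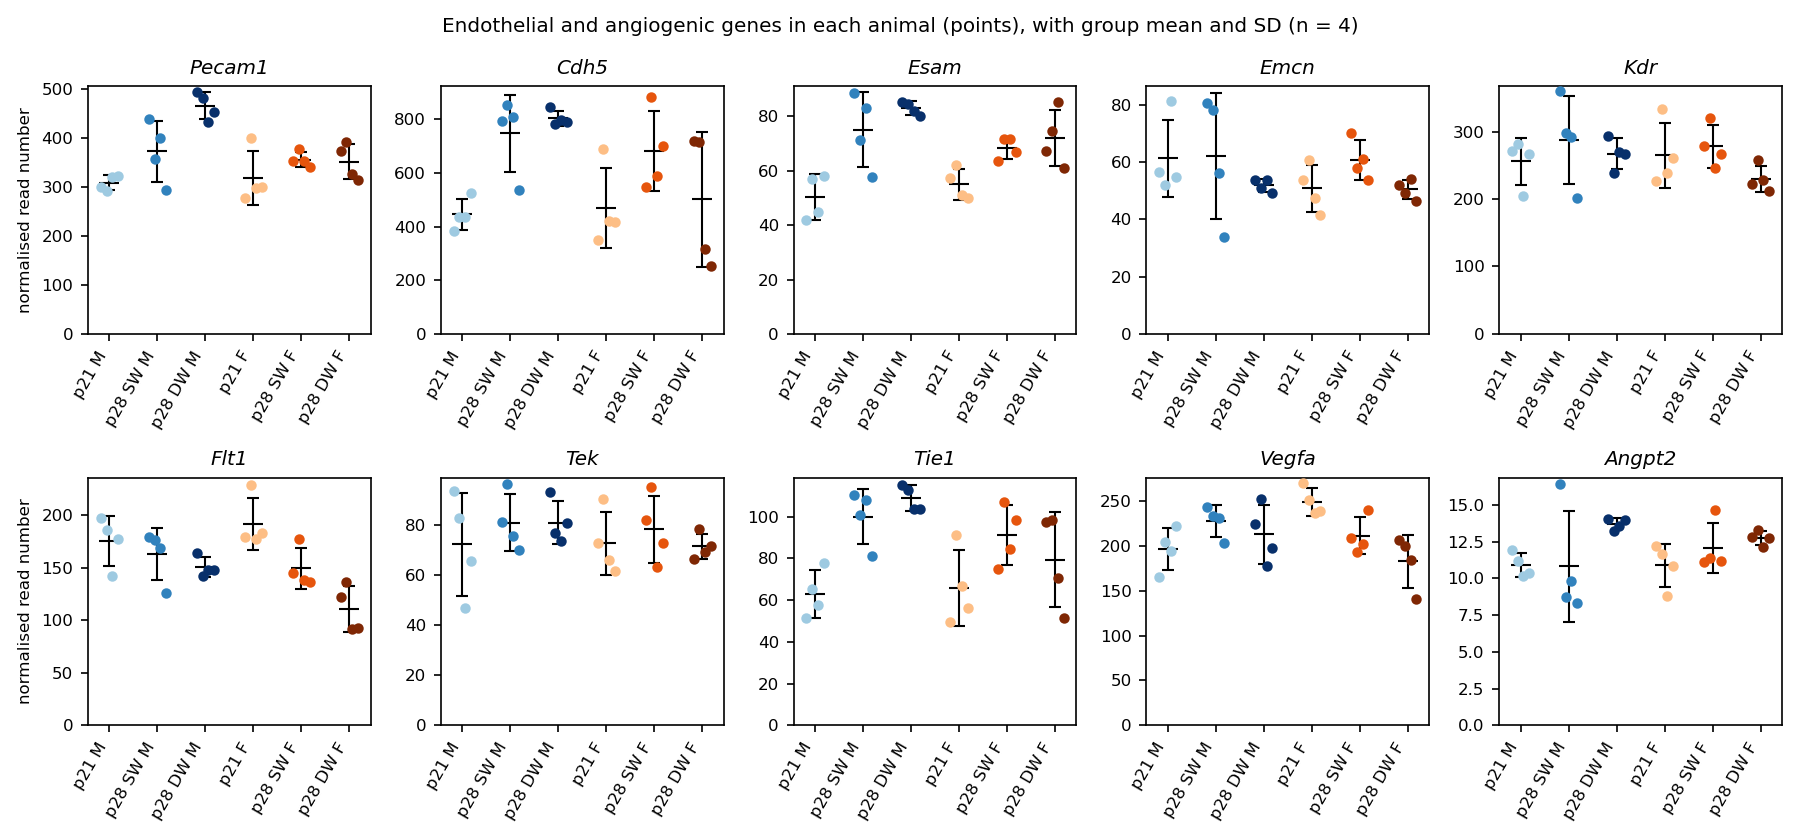
Normalised read number of each of the 10 genes in each animal (points), with group mean and SD (n = 4), on axes that start at 0. Esam, Cdh5 and Tie1 are higher in p28 than in p21 males, Flt1 and Vegfa are lower in DW than in p21 females, and Cdh5 in DW females splits into a pair at 715.6 and 719.2 and a pair at 252.1 and 317.7.

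Among the receptors, Tie1 rose with age in males and Flt1 fell in DW females, and neither Kdr nor Tek was called anywhere. The promoters of Tie1 and Flt1 are shown because these are the receptors that were called, in opposite directions, and that of Vegfa because it is the called ligand. Each is the 250 bases before a RefSeq transcript start on GRCm38.p6, 5′ to 3′ on the gene's strand. In the table used, 6 of the 10 genes had a promoter entry, in 7 windows. Capitals mark the ETS-type core AGGAAG, the GATA-type core AGATAA and the hypoxia-type core ACGTG, searched on both strands. No match of one core overlaps another in the windows shown.
Tie1 (chr4:118489850-118490099, minus strand): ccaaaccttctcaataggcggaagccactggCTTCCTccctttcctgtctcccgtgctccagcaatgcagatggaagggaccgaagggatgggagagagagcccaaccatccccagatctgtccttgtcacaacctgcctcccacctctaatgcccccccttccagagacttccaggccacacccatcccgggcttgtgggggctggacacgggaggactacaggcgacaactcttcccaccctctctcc
Flt1 (chr5:147726012-147726261, minus strand): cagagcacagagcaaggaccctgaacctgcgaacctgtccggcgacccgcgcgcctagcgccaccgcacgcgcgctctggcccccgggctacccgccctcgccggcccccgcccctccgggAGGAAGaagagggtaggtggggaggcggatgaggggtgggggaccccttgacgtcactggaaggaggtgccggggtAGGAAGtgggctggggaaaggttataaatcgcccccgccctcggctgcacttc
Vegfa (chr17:46032378-46032627, minus strand): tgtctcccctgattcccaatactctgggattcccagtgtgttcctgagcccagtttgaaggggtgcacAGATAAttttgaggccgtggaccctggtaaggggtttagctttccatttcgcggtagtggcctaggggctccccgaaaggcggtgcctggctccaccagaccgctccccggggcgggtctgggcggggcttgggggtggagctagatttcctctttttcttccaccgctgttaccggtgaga

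AGGAAG was present once in the Tie1 window and at 2 places in the Flt1 window, and AGATAA once in this Vegfa window. Of all 32851 windows of this length, 29.5% held AGGAAG, 9.99% held AGATAA and 16.6% held ACGTG. Of the 7 windows of these genes, 3 held AGGAAG, 1 held AGATAA and 1, a second Vegfa window, held ACGTG. That second window (chr17:46025164-46025413, minus strand) lies downstream of the Vegfa start shown, before another listed transcript start. Its ACGTG is therefore not a match upstream of the first start. A match is a description of letters and not a binding site.

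Tie1, the partner receptor of Tek (chromosome 4), was at 51.37, 65.3, 57.44 and 77.73 in p21 males, at 110.1, 100.6, 108.1 and 81.18 in SW males and at 115.3, 112.9, 103.6 and 103.6 in DW males. All p28 males lay above all p21 males. It rose by 0.67 (SE 0.19, adjusted p = 0.026) in SW males and by 0.79 (SE 0.19, adjusted p = 0.0083) in DW males. The DW call was kept in all 9 other settings and all 8 fits with 1 animal left out. The SW call was lost without p21 male 37 (adjusted p = 0.073), p21 male 53 (0.064), SW male 78 (0.067), SW male 84 (0.055) or SW male 85 (0.073), and with tissue scores as covariates (0.11). In females Tie1 was at 65.9 ± 18.2 at p21, 91.2 ± 14.2 in SW and 79.3 ± 22.7 in DW animals (SD, n = 4 each). The SW difference of 0.49 was not called (adjusted p = 0.11). Without p21 female 36 it was 0.65 (adjusted p = 0.029), and with tissue scores as covariates 0.18 (adjusted p = 0.82). The mammary score did not overlap between these groups, so the fit with tissue scores separates age poorly from it. The DW difference of 0.25 was not called (adjusted p = 0.41). Without DW females 82 and 83 it was 0.60 (adjusted p = 0.057), and on values corrected for GC content it was 0.45 (adjusted p = 0.020).

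Flt1, the VEGF-A binding receptor that limits signalling through Kdr (chromosome 5), was at 179.7, 228.9, 176.9 and 182.7 in p21 females, at 145.3, 177.7, 138.0 and 136.5 in SW females and at 122.2, 136.6, 92.1 and 93.01 in DW females. All DW females lay below all p21 females, and SW females lay between, with animal 74 just inside the p21 range. Flt1 fell by 0.80 on the log2 scale in DW against p21 females (SE 0.14, adjusted p = 0.00088). It fell by 0.56 without DW females 82 and 83 (adjusted p = 0.024), and was called in all 9 other settings and all 8 fits with 1 animal left out. The SW difference was -0.36 (adjusted p = 0.11). Of the 10 genes, 2 fell and 0 rose in DW against p21 females (over all genes 6.16% fell and 12.1% were called), and 0 were called in SW females against p21 by limma, edgeR or DESeq2, with 3 at an unadjusted p under 0.05 by limma (over all genes 11.6% were called). The median over the 10 genes was -0.01 in DW females and 0.16 in SW females, beside 0.00 and 0.01 over all genes. In males Flt1 was at 175.8 ± 23.9 at p21, 162.7 ± 24.6 in SW and 150.5 ± 9.70 in DW animals (SD, n = 4 each), with no call.

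Kdr, the main signalling receptor for VEGF-A (chromosome 5), had group means of 230.0 to 287.8. DW females were the lowest group, at 230.0 ± 19.6, and SW males the highest, at 287.8 ± 65.5 (SD, n = 4 each), and the groups overlapped. Tek, the angiopoietin receptor (chromosome 4), had group means of 71.3 to 80.8, with p21 males alone running from 46.62 to 93.47.

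Among the ligands, Vegfa fell with age in DW females and Angpt2 was not called. Vegfa (chromosome 17) was at 269.6, 250.5, 236.1 and 238.2 in p21 females, at 209.0, 193.5, 201.5 and 240.4 in SW females and at 206.3, 199.9, 184.6 and 140.9 in DW females. The DW females lay below all p21 females, and 3 of the 4 SW females did so. Vegfa fell by 0.45 on the log2 scale in DW against p21 females (SE 0.12, adjusted p = 0.019). The call was lost without DW female 83 (-0.33, adjusted p = 0.092), without p21 female 30 (-0.41, adjusted p = 0.059), without DW females 82 and 83 together (-0.29, adjusted p = 0.18) and with the compared groups alone (adjusted p = 0.11). In males Vegfa was at 196.4 ± 23.9 at p21, 227.6 ± 17.5 in SW and 212.8 ± 32.8 in DW animals (SD, n = 4 each), with no call. The p21 males lay below all p21 females, by 0.34 on the log2 scale, which was not called (adjusted p = 0.43). Over all genes, 2.98% lay lower in p21 males without overlap.

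Angpt2 (chromosome 8) was at 11.9, 11.2, 10.15 and 10.39 in p21 males, at 16.39, 8.708, 9.787 and 8.354 in SW males and at 14.02, 13.22, 13.58 and 13.97 in DW males. DW males lay above all p21 males without a call (0.31, adjusted p = 0.17). In females the group means were 10.9 at p21, 12.1 in SW and 12.7 in DW animals.

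**Figure D3:**
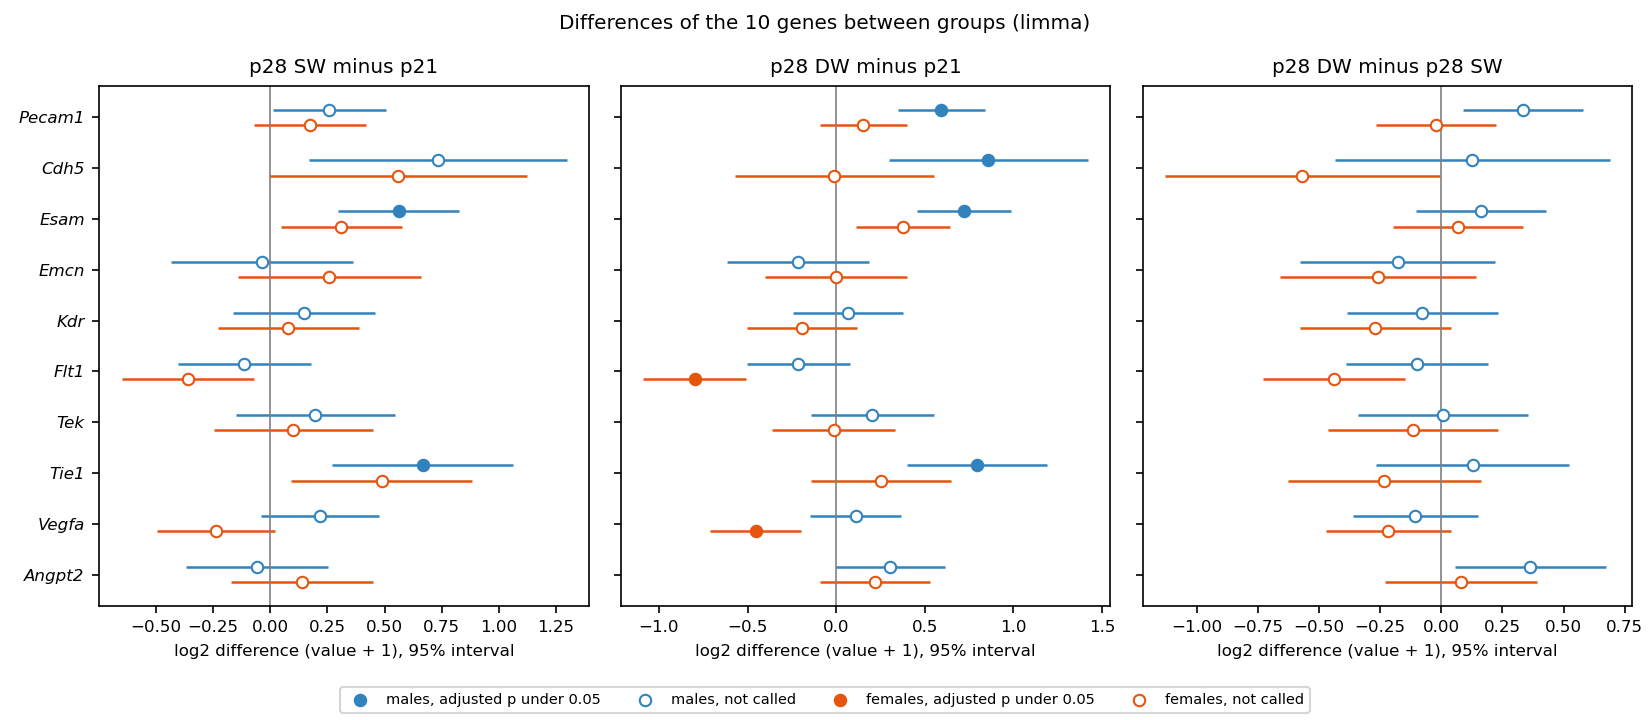
Log2 difference of each of the 10 genes for p28 SW minus p21, p28 DW minus p21 and p28 DW minus p28 SW, in males and females, with 95% intervals from limma. Filled points were called: Esam and Tie1 in SW males, Pecam1, Cdh5, Esam and Tie1 in DW males, and Flt1 and Vegfa in DW females, all against p21.

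Delayed against standard weaning at p28 called none of the 10 genes in either sex, by limma, edgeR or DESeq2. In males 2 had an unadjusted p under 0.05 by limma and 0.256% of all genes were called. These were Pecam1, higher in DW males by 0.33 (95% interval 0.09 to 0.58, adjusted p = 0.45), and Angpt2, higher by 0.36 (95% interval 0.05 to 0.67, adjusted p = 0.61). The Angpt2 difference was called without SW male 78, the highest of its group (0.57, adjusted p = 0.040). In females 2 had an unadjusted p under 0.05 and 1.27% of all genes were called. Flt1 was lower in DW females by 0.44 (95% interval -0.73 to -0.15, adjusted p = 0.13). It was called without DW female 76 (-0.49, adjusted p = 0.040) or DW female 77 (-0.54, adjusted p = 0.037), and was -0.20 without DW females 82 and 83 (adjusted p = 0.9995). Cdh5 was at -0.57 (95% interval -1.13 to -0.01, adjusted p = 0.26) and at 0.10 without DW females 82 and 83 (adjusted p = 0.9995), so its direction rests on those animals. None of the 10 had groups free of overlap, which over all genes was true of 5.34% higher and 3.40% lower in DW males and of 2.27% and 3.52% in DW females. The median over the 10 genes was 0.07 in males and -0.22 in females, beside 0.00 and -0.02 over all genes. The sex by weaning interaction called 0 of the 10 by limma, edgeR or DESeq2 (1 at an unadjusted p under 0.05, and 0.0187% of all genes called), with Pecam1 at 0.35 (95% interval 0.01 to 0.70, adjusted p = 0.80) and at 0.23 without DW females 82 and 83 (adjusted p = 0.9995).

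Males and females were compared at each stage. At p21 and in SW animals none of the 10 genes was called by limma, edgeR or DESeq2, with 1 and 0 at an unadjusted p under 0.05 (0.356% and 3.54% of all genes were called). In DW animals limma and edgeR called 0, with 4 at an unadjusted p under 0.05 by limma, and DESeq2 called Pecam1 (adjusted p = 0.032). There 2.46% of all genes were called by limma. All 10 genes had higher group means on the log2 scale in DW males than in DW females. The differences ran from 0.04 (Emcn) to 0.83 (Cdh5), with a median of 0.22 beside 0.01 over all genes. The 8 junction, surface and receptor genes varied together within groups, so these directions are not independent. Pecam1, Cdh5, Flt1 and Tie1 were higher in DW males without overlap between the groups, which was true of 5.26% of all genes. The male minus female differences were 0.41 for Pecam1 (adjusted p = 0.072), 0.83 for Cdh5 (adjusted p = 0.11), 0.46 for Flt1 (adjusted p = 0.089) and 0.50 for Tie1 (adjusted p = 0.16). Without DW females 82 and 83 they were 0.28, 0.16, 0.22 and 0.15, with adjusted p-values of 0.55 to 0.89. With tissue scores as covariates they were 0.77, 1.73, 0.84 and 1.13, each with an adjusted p of 0.25. Among these covariates, the mammary score reached at most 1.182 for any DW male and was never under 3.414 for a DW female. With no overlap in this score, the fit cannot separate it well from sex, and no conclusion is drawn from these larger differences. Leaving out instead DW female 76 gave calls for Pecam1 (0.44, adjusted p = 0.035), Cdh5 (1.06, adjusted p = 0.022) and Flt1 (0.51, adjusted p = 0.037). Leaving out DW female 77 did so too, at 0.46 (adjusted p = 0.030), 1.05 (0.023) and 0.56 (0.022). The change from p21 to p28 was compared between the sexes directly. Under SW the interaction called 0 of the 10 (1 at an unadjusted p under 0.05, 1.03% of all genes called), and under DW it called 0 (4 at an unadjusted p under 0.05, 0.0687% of all genes called), by limma, edgeR and DESeq2 alike. The 4 under DW were Cdh5 (0.87, adjusted p = 0.26), Pecam1 (0.44, adjusted p = 0.21), Flt1 (0.58, adjusted p = 0.18) and Vegfa (0.56, adjusted p = 0.16). Without DW females 82 and 83 these were 0.20 for Cdh5, 0.31 for Pecam1, 0.35 for Flt1 and 0.40 for Vegfa, with adjusted p-values of 0.44 to 0.85. The calls in males and the calls in females are therefore not shown to differ between the sexes.

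**Figure D4:**
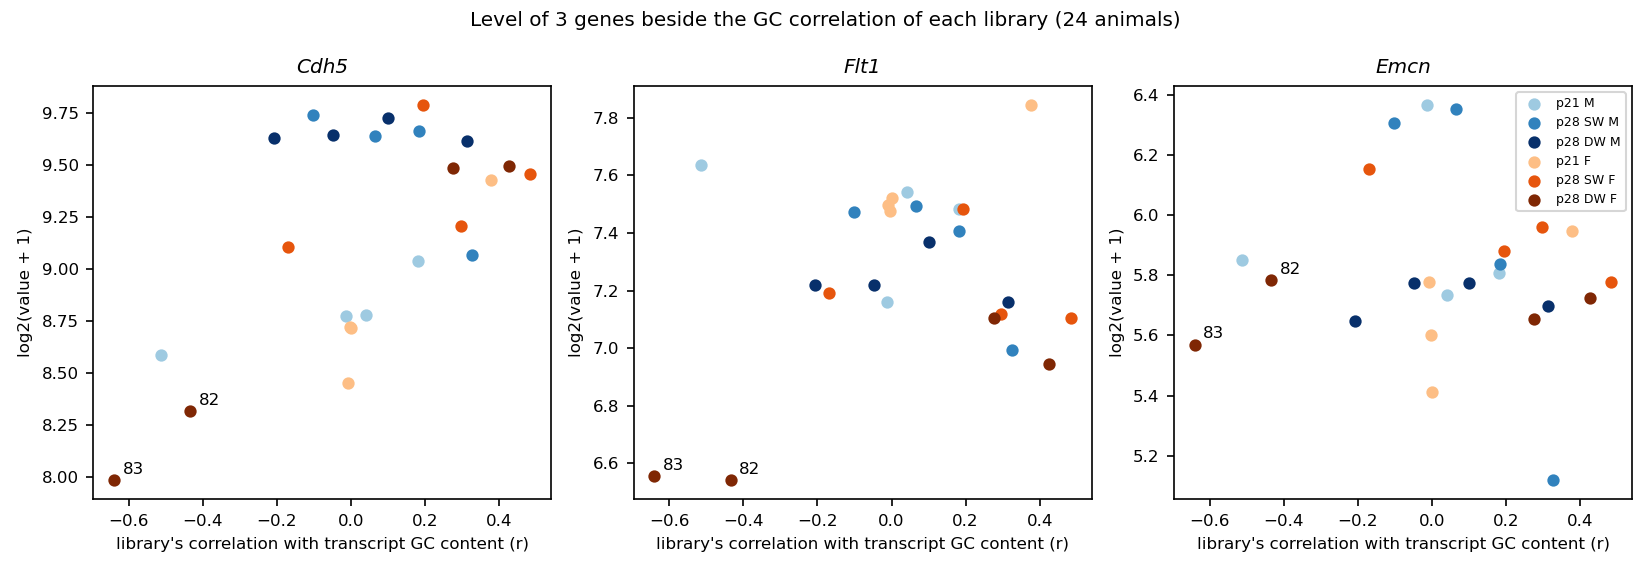
Level of Cdh5, Flt1 and Emcn (log2(value + 1)) in each of the 24 animals against the correlation of that library with transcript GC content. DW females 82 and 83, at -0.43 and -0.64, are the lowest points for Cdh5 and Flt1 and lie within the other animals for Emcn.

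The other genes of the vessel wall came from 6 lists. Of 24 further endothelial genes, 7 rose in SW males against p21 (Cldn5, Vwf, Robo4, Erg, Sox17, Ptprb and Gpihbp1) and 11 in DW males (these 7 with Sox7, Sox18, Mmrn2 and Aqp1), and none fell. Over all genes 6.90% rose in SW males and 8.86% in DW males. The median difference of the 24 was 0.39 in SW males and 0.50 in DW males, beside 0.01 and 0.02 over all genes. Cldn5, the main claudin of endothelial tight junctions, was at 22.8 ± 6.15 in p21, 74.9 ± 20.0 in SW and 73.6 ± 12.8 in DW males (SD, n = 4 each), a rise of 1.68 under each schedule (adjusted p = 0.00023 and 0.00028). It also rose in SW females, by 1.79 (adjusted p = 0.000053), and in DW females, by 1.13 (adjusted p = 0.0055). Vwf, a clotting protein of endothelial storage granules, rose from 22.4 ± 3.43 in p21 males to 61.6 ± 8.67 in DW males (SD, n = 4 each), by 1.42 (adjusted p = 0.000145). Erg, an ETS transcription factor that keeps endothelial identity, rose in SW males (0.69), DW males (0.68) and SW females (0.51, adjusted p = 0.023). Gpihbp1, which carries lipoprotein lipase to the capillary lumen, rose by 0.71 in SW and 0.84 in DW males. In females 2 of the 24 rose under SW and 1 under DW, where Podxl, a sialomucin of the luminal surface, fell by 0.54 (adjusted p = 0.042). Over all genes 11.6% and 12.1% were called in these comparisons, and the median of the 24 was 0.29 under SW and 0.26 under DW, beside 0.01 and 0.00 over all genes. Without DW females 82 and 83 the DW count was 3 higher and 0 lower. The count in SW males was 3 without p21 male 53 and SW male 84, 3 without SW male 78 and 2 with tissue scores as covariates. The count in DW males was 7 without p21 male 53 and 8 with tissue scores as covariates. None of the 24 was called for weaning or sex by limma, with 0 to 8 at an unadjusted p under 0.05.

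Of 10 further genes of the VEGF and angiopoietin family, Angptl4, an inhibitor of lipoprotein lipase, rose in SW males (1.21), DW males (1.24) and SW females (0.79, adjusted p = 0.048). In DW males Nrp2, a co-receptor for VEGF ligands, rose by 0.60 (adjusted p = 0.0036) and Pgf, a ligand of Flt1, by 0.58 (adjusted p = 0.027). Nrp2 also rose in DW females, by 0.43 (adjusted p = 0.028). Angpt4 was called in SW females at group means under 1 normalised read, where 1 read is worth 0.00358 to 0.0154. Of 15 sprouting and Notch genes, the tip-cell gene Esm1 fell in SW males by 0.84 (adjusted p = 0.015) and in DW males by 1.02 (adjusted p = 0.0038). Apln, the apelin ligand, fell in SW males by 0.91 (adjusted p = 0.046), and without p21 male 37 or 38 neither was called under SW. Cxcr4 fell in DW males by 0.75 (adjusted p = 0.049). The apelin receptor Aplnr rose in SW females (1.08), DW males (1.07) and DW females (1.23), and Notch4 rose in DW males (0.97, adjusted p = 0.027). Of 8 artery and vein genes, Selp, a venous adhesion receptor for leukocytes, rose in SW males (0.87), SW females (0.71) and DW males (0.62).

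Of 12 pericyte and smooth muscle genes, Rgs5 and Abcc9, both pericyte genes, rose in males under SW (0.50 and 0.43) and DW (0.61 and 0.48). Higd1b rose in SW males by 0.82 and Mcam in DW males by 0.52, and none was called with age in females. The SW count of 3 was 0 without SW male 84 or SW male 85. Cnn1 was lower in SW males than in SW females by 1.12 (adjusted p = 0.023), and this call was lost without SW male 84 or 85 or SW female 73, 74 or 81. Of 11 hypoxia response genes, Pfkfb3, which drives glycolysis, rose in SW males (0.65) and DW males (0.51). Ppargc1a, a regulator of mitochondria that also acts on Vegfa, fell in SW females by 0.70 and in DW females by 0.88, and Adm, a vasodilator peptide, rose in DW females by 0.60. Weaning called none of the genes on the other 5 lists in either sex by limma, with 0 to 4 at an unadjusted p under 0.05 per list.

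Markers of other cells changed in the same comparisons. Skeletal muscle markers rose in males, 7 of 8 in SW (median 5.46) and 7 of 8 in DW animals (median 5.14). Their mean log2 level ran from 0.58 to 5.40 in p21 males, 5.19 to 9.43 in SW males and 4.59 to 9.31 in DW males. In females 0 of 8 were called with age, with medians of 3.35 in SW (5 at an unadjusted p under 0.05 by limma) and 0.17 in DW animals (0). Their mean log2 level ran from 0.67 to 7.30 at p21, 5.32 to 8.38 in SW and 0.55 to 7.59 in DW females. For DW minus SW the median was -3.26 in females (0 called, 4 at an unadjusted p under 0.05) and -0.32 in males (0 and 0). For DW males minus DW females it was 3.66 (0 called, 7 at an unadjusted p under 0.05). With muscle, mammary and lymph node scores as covariates, Pecam1, Esam and Tie1 stayed called in DW males and Flt1 and Vegfa in DW females, while 0 of the 10 were called in SW males. There the differences themselves were 0.54 for Esam and 0.67 for Tie1, beside 0.56 and 0.67 without the covariates. Of 5 macrophage markers, 4 rose in SW males and 5 in DW males, 3 in SW females and 4 in DW females. Their mean log2 level was 4.22 to 5.36 in p21 males and 5.55 to 6.18 in p28 males. Their part in the results on Pecam1 was not tested. Adipoq and Cidec, 2 of 6 adipocyte markers, rose in both groups of p28 males, and Lep fell in SW males. The level of the adipocyte list was 9.10 to 9.44 in p21 males, 9.65 to 9.77 in SW males and 9.53 to 9.97 in DW males, and its part was not tested either. Of 7 lymphatic endothelial markers, Prox1 rose in SW males, and Prox1, Mmrn1 and Reln in DW males, and none was called in females. Red cell markers fell with age, 5 of 5 in SW males, 4 of 5 in DW males, 2 of 5 in SW females and 5 of 5 in DW females. In the weaning comparison, which called none of the 10 vessel genes, DW animals had higher proliferation markers, 3 of 5 in males and 5 of 5 in females. Their mean log2 level was 5.355 and 5.161 in DW females 82 and 83, and 4.301 and 4.609 in DW females 76 and 77. In SW females it was 3.666 to 4.008. No count of these markers was made without DW females 82 and 83. With age these markers rose in DW animals, 2 of 5 in males and 5 of 5 in females, and 2 of 5 fell in SW males. Of 7 mammary epithelium markers, 5 rose with age in SW females (median of the 7 1.94) and Krt19 in DW females (median 0.79). For DW minus SW females the median of these markers was -1.15 (0 called, 5 at an unadjusted p under 0.05 by limma). They were lower in males than in females, 5 of 7 at p21, 7 of 7 in SW and 7 of 7 in DW animals, with medians of -2.62, -4.95 and -4.07. Krt8 was at 52.7 to 74.9 in SW females and at 0.00 to 6.94 in SW males. For the 10 genes the fits with tissue scores include a mammary score, and the part of these markers in the Cnn1 call was not tested.

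The 8 junction, surface and receptor genes varied together to different degrees. Over the 24 animals the 28 pairs had Pearson's r from -0.27 (Esam and Flt1) to 0.94 (Cdh5 and Tie1), with a median of 0.39. After each animal's group mean was taken off, all 28 were positive, with a median of 0.57. The pairs share libraries and, in part, the library differences described above. The genes whose values over the 24 animals were most like the mean of these 8, among 5041 genes whose log2 values averaged 5 or more, were Ctnnbip1 (r = 0.94), Mmrn2 (0.92), Cdh13 (0.91), Uaca (0.89), Ablim3 (0.88), 2900026A02Rik (0.87), Septin4 (0.85), Sparcl1 (0.85), Adgrf5 (0.85) and Etl4 (0.85). Of these 10, 6 were also among the 10 most alike within groups. For Vegfa, among 5049 genes, the nearest were Srebf1 (0.84), Hmox2 (0.84), Bcat2 (0.84), Sh3glb2 (0.84) and Mccc2 (0.83). None of these was among the 5 nearest within groups, which had r of 0.84 to 0.90 there. Their own r with Vegfa within groups was still 0.74 (Mccc2) to 0.83 (Srebf1).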

How the data were processed

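Poly(A) RNA libraries of 24 mice (4 in each of 6 groups of sex, age and weaning) were used. Labels of age, sex and weaning set the groups. For 8 p21 samples the title names another age and was not followed. The submitters' processing notes name fastp, HISAT2, featureCounts, DESeq2 1.38.3 and mm10, with no role or order. The deposited signal per gene and sample is whole reads divided by a factor of that sample: 100% of values were whole multiples at a tolerance of 0.01 reads, so reads were recovered. Log2 fold changes and adjusted p-values for 15 comparisons were deposited too, per the file headers. Of 16208 rows, 90 repeats were left out.

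The main test was limma 3.58.1 (R 4.3.3, variance trend) on log2(value + 1). Genes were kept by filterByExpr on recovered reads (minimum count 10). All 24 samples entered 1 fit with 18 residual degrees of freedom, 9 comparisons and 3 interactions, and p-values were adjusted over 16005 genes. The scripts were checked on simulated data. Total reads of 57600711 or more per library cover listed genes, and reads may be repeated copies of 1 molecule. The members and gene lists were chosen with earlier results of these data known. All 10 members are named, and list genes where called in at least 1 comparison.

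Exon lengths and GC content (99.49% of genes) are from GENCODE mouse release M21, and promoters from RefSeq. Gene positions in the file carry no build and are not printed. The smallest chi-square per degree of freedom between the recovered reads of 2 animals of a group was 79.5 over 36 pairs, so no libraries were merged. Alternatives were edgeR 4.0.16 with TMM or with DESeq2 size factors, DESeq2 1.42.0, no filter, a pseudocount of 0.1, the compared groups alone, tissue scores as covariates, and leaving out p21 male 53 with SW male 84 or each animal in turn. A fit without DW females 82 and 83 and a correction for GC content (lowess, span 0.3) were added after the data were seen, as were list counts under these settings.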

Additional observations from a re-analysis of the deposited data

Results flagged for a closer look

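Each of the 10 genes was examined in each of the 6 groups for 1 animal far from the other 3 (Dixon's test on log2(value + 1)). Of these 60 sets, 4 passed the 95% critical value, where chance gives about 1 in 20. Cdh5 in SW male 124 was at 9.07 on the log2 scale, or 535.5 normalised reads, while the other SW males were at 795.1 to 853.7. Kdr in p21 male 53, the library with the fewest reads and genes detected, was at 7.69, or 205.1 normalised reads beside 267.4 to 281.2. Flt1 in p21 female 36 was at 7.84, or 228.9 normalised reads beside 176.9 to 182.7. Without that animal Flt1 remained called in DW against p21 females. Angpt2 in SW female 75 was at 3.97, or 14.62 normalised reads beside 11.1 to 11.37.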

How the results depend on the processing

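No paired analysis was possible because animal numbers are not shared between groups. Of 120 values (10 genes in 9 comparisons and 3 interactions), 31 changed sign under at least 1 other setting and 29 with 1 animal left out, and none of these was among the 8 called. Cdh5 in DW minus SW females turned from -0.57 to 0.10 without DW females 82 and 83. The number of the 10 genes called in SW against p21 males was 2, and became 0 with tissue scores as covariates and 1 without p21 male 53 and SW male 84. In DW against p21 males it was 4, and became 3 under each of these settings (Cdh5 lost). In SW against p21 females it was 0, and became 1 with the compared groups alone (Esam) and 1 with GC-corrected values (Tie1). In DW against p21 females it was 2, and became 1 with the compared groups alone, 1 without DW females 82 and 83, 3 with DESeq2 or either edgeR scaling (Esam added) and 4 with GC-corrected values (Esam, Flt1, Tie1 and Vegfa). In DW males against DW females it was 0, and 1 with DESeq2. With 1 animal left out the number ran from 0 to 1 for DW minus SW in males, 0 to 1 in females, 1 to 3 for SW minus p21 in males, 0 to 1 in females, 3 to 4 for DW minus p21 in males, 1 to 3 in females, and 0 to 3 for DW males against females. It stayed at 0 in the other 5 comparisons and interactions. The cause of these changes was not tested, except that leaving animals out also removes samples. Over all genes, the number called under the other settings ran from 28 to 134 (41 as reported) for weaning in males, 1 to 290 (204) in females, 603 to 2562 (1901) for SW minus p21 in males, 422 to 2445 (1860) in females, 907 to 3170 (2395) for DW minus p21 in males, 486 to 2506 (1938) in females, 4 to 115 (57), 10 to 601 (567) and 5 to 848 (394) between the sexes at p21, SW and DW, and 0 to 3 (3), 4 to 213 (165) and 0 to 329 (11) for the interactions of sex with weaning, with age under SW and with age under DW. With 1 animal left out it reached 1996 for weaning in females. Of the 24 further endothelial genes, the number higher against p21 ran over other settings from 2 to 10 under SW (7) and from 7 to 13 under DW (11) in males. In females it ran from 1 to 4 under SW (2) and from 1 to 7 under DW (1). The scaling moved the median of all genes by less than 0.1 on the log2 scale. The 10 genes had 622 or more reads per library, but reads may be repeated copies of 1 molecule, so the number of molecules sampled is not known. The 4 animals per group limit the precision.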

Other observations

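In the authors' deposited table Pecam1 has a log2 fold change of 0.321 for DW against SW males, with 0.0115 in the column headed as adjusted p. Flt1 has -0.429 for DW against SW females, with 0.00505 in that column. In the limma fit neither gene was called for weaning. Over 15987 genes, 1213 (7.59%) of the deposited adjusted p-values were under 0.05 for weaning in males and 2723 (17.0%) in females. A Benjamini-Hochberg adjustment of the deposited column left 114 and 237. The deposited column had a Spearman rank correlation across genes of 0.994 in males and 0.993 in females with unadjusted p-values computed here by DESeq2 from the recovered reads. The median absolute difference from those unadjusted p-values was 0.0268 in males and 0.0238 in females, and from the adjusted ones 0.436 and 0.207. Genes are not independent replicates, and how the column was computed is not given in the sources used here.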
